A study of Mus musculus with 24 samples.

Results

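Pydc3 and 8 relatives of the mouse PYHIN gene family (Pydc4, Ifi203, Ifi204, Ifi205, Mnda, Mndal, Pyhin1 and Aim2) were examined by RNA sequencing in infarcted mouse hearts. The genes were taken by symbol from the table of read counts, where 9 of 9 were present among 21878 genes, and all 9 passed a filter on low counts. Pydc3 was chosen by its counts in these libraries, which were high in 1 of the 4 groups, so its values are given as a description with no test. The other 8 genes were chosen as its relatives. Every mouse had been ovariectomised (OVX), had received AAV9, a virus that carries genes into the heart, and had a myocardial infarction (MI) 3 weeks before its heart was sampled. The AAV9 was either Empty or built to overexpress (OE) the microRNA miR-21, and the mice had either trained by swimming ahead of the infarction or belonged to the control without training. That gave 6 libraries of the empty vector without training (Empty-Control), 6 of the empty vector with swimming (Empty-Swim), 6 of the miR-21 vector without training (miR-21-Control) and 5 of the miR-21 vector with swimming (miR-21-Swim). Strain, age and the promoter of the vector were not stated in the labels, and with 0 rows for the miR-21 gene among the counts its overexpression was not checked. Ovariectomy, AAV9 and infarction were shared by all groups, so the effect of none of them was measured.

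Libraries held between 12744241 and 14657630 counts, and 9 heart muscle markers (Myh6, Ttn and others) summed to 58850 to 112899 CPM (counts scaled to the library total) in each. In 3 libraries the markers of fat tissue were highest, with a mean log2 CPM of 5.84 and 5.65 in Empty-Control replicates 2 and 5 and 5.40 in miR-21-Swim replicate 2. These are named fat-marker libraries here, although the summed CPM of the 12 fat markers in them, 4742 to 7201, lay inside that of the other 20, 4683 to 9704. Sample titles carry a lower series of numbers in both control groups and in miR-21-Swim replicates 1 and 2, and a higher series in Empty-Swim and in miR-21-Swim replicates 3 to 5. What the numbers stand for is not stated, and with the empty vector the number series and swimming cannot be told apart. No label ties a library to its own mouse, so the p-values below reflect only how these samples vary, which may be technical in part.

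PYHIN proteins combine a pyrin domain, which binds other pyrin domains, with in most members a HIN domain, which binds DNA. Aim2 is the best known: it detects DNA in the cytosol and, through the adaptor Pycard, assembles an inflammasome that activates caspase-1. Ifi204 has been linked to the STING pathway, which senses DNA and switches on interferon. The genes lie in 1 cluster on mouse chromosome 1, many are induced by interferon, and most are known from macrophages and other white blood cells. RefSeq names Pydc3 Ifi208, Pydc4 Ifi213, Pyhin1 Ifi209 and Mnda Ifi211.

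The start regions are shown first because Pydc4, whose start region was nearly identical to that of Pydc3, overlapped between groups that Pydc3 separated. Windows from 250 bases before to 50 after the start of each gene (RefSeq, build GRCm38.p6) were found for 8 of the 9 genes. Capitals mark the core of the interferon-stimulated response element, GAAANNGAA, searched on both strands. The windows of Pydc3 (chr1:173673415-173673714, plus strand), Pydc4 (chr1:173599223-173599522, minus strand) and Pyhin1 (chr1:173630609-173630908, plus strand), the gene next to Pydc3, read 5′ to 3′ as follows.
Pydc3: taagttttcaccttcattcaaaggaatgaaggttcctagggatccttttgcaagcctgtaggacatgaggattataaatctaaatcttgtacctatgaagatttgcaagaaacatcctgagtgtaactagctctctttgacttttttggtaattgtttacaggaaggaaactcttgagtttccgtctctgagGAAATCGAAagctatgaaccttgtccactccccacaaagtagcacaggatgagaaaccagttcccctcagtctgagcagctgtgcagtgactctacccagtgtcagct
Pydc4: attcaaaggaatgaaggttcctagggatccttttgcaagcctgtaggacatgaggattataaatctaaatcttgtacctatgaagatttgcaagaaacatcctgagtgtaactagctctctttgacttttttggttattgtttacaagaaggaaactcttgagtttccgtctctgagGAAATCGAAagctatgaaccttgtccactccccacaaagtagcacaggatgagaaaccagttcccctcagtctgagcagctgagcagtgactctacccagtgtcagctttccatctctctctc
Pyhin1: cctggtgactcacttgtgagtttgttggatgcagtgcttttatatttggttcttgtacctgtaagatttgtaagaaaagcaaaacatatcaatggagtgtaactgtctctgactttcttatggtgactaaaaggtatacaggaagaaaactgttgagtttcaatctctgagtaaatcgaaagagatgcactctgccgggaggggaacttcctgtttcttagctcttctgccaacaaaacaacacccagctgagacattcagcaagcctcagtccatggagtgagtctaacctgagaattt

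Placed side by side without gaps, the windows of Pydc3 and Pydc4 shared 282 of 285 bases (98.9%), with the start of Pydc4 shifted by 15 bases. The core began 58 bases before the start of Pydc3 and 73 before that of Pydc4. The window of Pyhin1, aligned in the same way, matched Pydc3 at 35.5% of 279 bases. The windows of the other relatives, apart from Pydc4, matched at 30.1% to 40.4%. Without gaps, an inserted or missing base breaks the match, so these shares do not show how related the windows are. At the place of the core the window of Pyhin1 had the substitution G1T, counted from 1 at the first base of GAAANNGAA. Ifi203 and Mndal have 2 windows each, and the core was present in 7 of the 10 windows of the 8 genes, among them Mnda at 37 bases before the start. Of all 32851 windows of 300 bases, 8.56% held it. The letters of the gamma-activated site, TTCNNNGAA, were in 0 of the windows of the 8 genes and in 8.3% of all windows. A match of letters is a description of the sequence, not a site of binding.

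Pydc3 was counted in Empty-Swim hearts and close to absent in the other 3 groups. The 6 Empty-Swim libraries held 62, 49, 48, 38, 49 and 53 reads of Pydc3. Empty-Control gave 6, 9, 1, 1, 2 and 1 reads. There were 1, 0, 0, 3, 2 and 0 reads in miR-21-Control and 2, 8, 2, 2 and 1 in miR-21-Swim. The lowest Empty-Swim library thus lay well above the highest of the other 17 libraries. In bulk tissue, fewer cells that make a transcript and less of it per cell cannot be told apart.

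On the scale of CPM normalised by trimmed mean of M-values, Pydc3 stood at 3.60 ± 0.61 (SD, n = 6) in Empty-Swim. The levels were 0.232 ± 0.234 (n = 6) in Empty-Control, 0.201 ± 0.154 (n = 5) in miR-21-Swim and 0.0747 ± 0.0960 (n = 6) in miR-21-Control. The ranges of these last 3 groups overlapped, at 0.0674 to 0.602, 0.0824 to 0.471 and 0 to 0.232 CPM. Empty-Swim against Empty-Control gave a log2 difference of 3.91 ± 0.49 (SE), a 15.0-fold higher level, and miR-21-Swim against Empty-Swim gave -4.03 ± 0.53, a 16.3-fold lower level. Both share the 6 Empty-Swim libraries. With the title number series as a covariate the first difference was 5.16, and the second was -4.64 without miR-21-Swim replicate 2. Groups that do not overlap were also seen in 2.9% of all tested genes in the first comparison (higher) and 1.9% in the second (lower). The authors' deposited tables give log2 values of 3.95 and -4.16 for the same pairs of groups. No fold is given between the other groups, where 14 of 17 libraries had 3 reads or fewer.

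**Figure D1:**
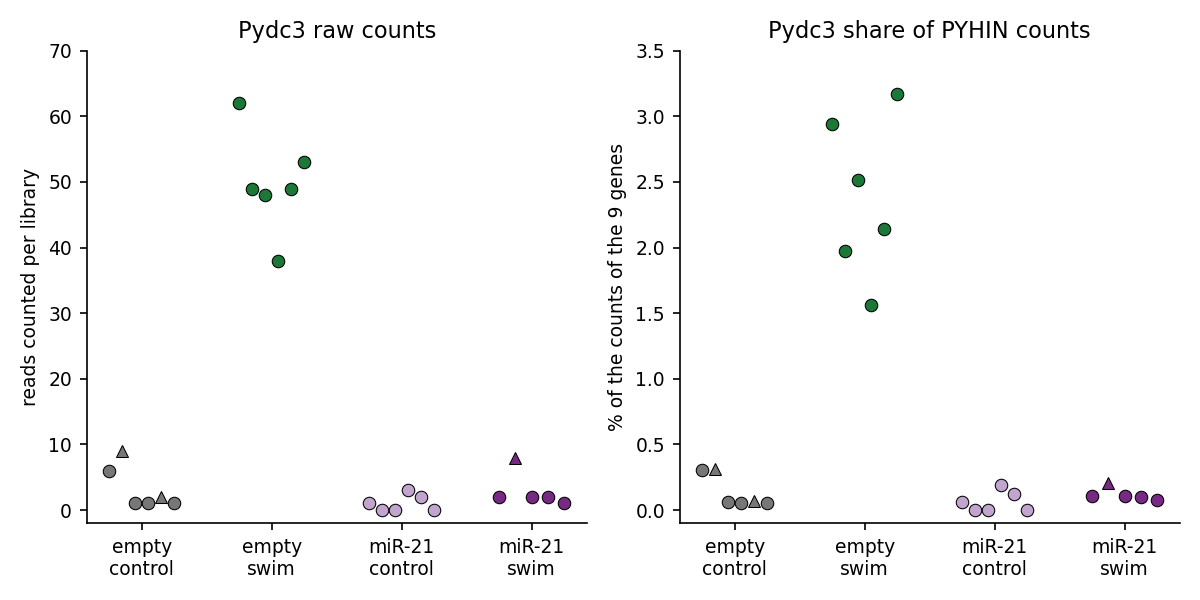
Reads of Pydc3 per library (left) and Pydc3 as a percentage of the reads of all 9 PYHIN genes (right) in the 4 groups. Each point is 1 library, and triangles are the fat-marker libraries. The 6 Empty-Swim libraries lie between 38 and 62 reads, above the other 17, which reach 9.

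Relative to its family, Pydc3 made up 1.56% to 3.17% of the reads of the 9 genes in Empty-Swim libraries and at most 0.314% in any other library. Pydc3 reached the level that the filter on low counts asks for in 6 of 6 Empty-Swim libraries and in 0 of the other 17, so it was kept through the group where it is high. Of 13501 tested genes, 56 (0.415%) had all 6 Empty-Swim libraries above all others. The gap between the lowest of the 6 and the highest of the other 17 was 1.90 log2 units for Pydc3. The next were Mest, an imprinted gene, at 0.60, Sapcd2 at 0.57, the potassium channel gene Kcnc4 at 0.43 and Rell1 at 0.33.

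Among libraries with the higher title numbers, the 6 with the empty vector held 38 to 62 reads of Pydc3 and the 3 with the miR-21 vector held 1 to 2. The fat-marker libraries held 9, 2 and 8 reads. Markers of macrophages and monocytes (18 of 18 present, 0 of them at 0 in every library) summed to 567 to 1084 CPM in Empty-Swim. The ranges in the other groups were 641 to 2920 CPM in Empty-Control, 450 to 1260 in miR-21-Control and 468 to 2880 in miR-21-Swim. The groups between which Pydc3 differed overlapped in these summed markers. The part of cell content in the level of Pydc3 was not tested.

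Some genes outside the family followed Pydc3 across libraries. Over the 23 libraries the highest Pearson correlations of log2 CPM with Pydc3 were those of Rell1 (0.94), the actin-capping gene Tmod3 (0.90), the laminin gene Lamb1 (0.89), Pola2 of the DNA polymerase alpha complex (0.89) and the spindle checkpoint kinase Ttk (0.88). The points share their libraries, and Pydc3 separates them into the Empty-Swim libraries and the rest. For the deviations from the group means the highest were Bmp2k, Ankrd44, the laminin gene Lama3, the actin nucleator Diaph1 and Eif4g3, at 0.71 to 0.72. Outside Empty-Swim Pydc3 had 0 to 9 reads a library, so these deviations rest largely on small counts. The genes named by either measure are the highest of 13501, and their correlations were not tested. Of the 20 most alike genes, 1 by either measure was on chromosome 1. Within the family the correlation over all libraries was 0.60 for Pydc4, 0.45 for Mnda, 0.44 for Ifi203 and 0.36 for Ifi204. It was 0.20 for Ifi205, 0.16 for Mndal, 0.094 for Pyhin1 and 0.028 for Aim2. The order was another for the deviations from the group means, with 0.45 for Aim2, 0.43 for Mnda and 0.42 for Ifi204. By that measure Pydc4, Ifi205, Mndal and Pyhin1 had 0.37 to 0.38 and Ifi203 had 0.25.

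Compared per length, the family was led by genes other than Pydc3. The authors' FPKM values, which scale counts to gene length and library size, averaged over the 23 libraries 9.17 for Ifi203, 8.15 for Mndal, 7.55 for Ifi205 and 5.13 for Ifi204. The first 3 had overlapping ranges, at 6.91 to 12.9, 5.98 to 13.2 and 3.69 to 16.7 FPKM. Lower were Mnda at 2.22, Pyhin1 at 1.02, Pydc4 at 0.611 and Aim2 at 0.496 FPKM. Pydc3 came last at 0.343 on average, but in Empty-Swim its mean was 1.16 ± 0.18 FPKM (SD, n = 6), above Pydc4 in the same libraries at 0.798 ± 0.196.

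Of 14 further PYHIN symbols looked for, 3 had rows, of which AI607873 (Ifi207), at 5.47 FPKM, could be tested. The 14 are symbols, not separate genes. They include Ifi208, Ifi209, Ifi211 and Ifi213, the RefSeq names of Pydc3, Pyhin1, Mnda and Pydc4. Ifi207 and Ifi214, other names of AI607873 and BC094916, are also among them. Ifi206 was found under another symbol, LOC102639543, and was tested as a neighbour of the members. BC094916 (Ifi214) and Ifi202b had 22 and 3 reads over all libraries. Family members share sequence, and a count is uncertain where reads fit more than 1 gene. Of the 50-base stretches of the longest transcript, 72.9% of those of Mnda, 34.7% of Pyhin1, 29.7% of Ifi204, 26.4% of Mndal and 25.9% of Pydc3 also occur in another family member (GENCODE transcripts). For Pydc3 the closest was Pydc4, with 21% of its stretches, while 4.83% of those of Pydc4 occur in Pydc3. For Ifi203 the share was 5.86%, for Ifi205 0.186% and for Aim2 0%. How the authors' counting assigned such reads is not stated in the labels.

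Pydc4 overlapped between the groups where Pydc3 did not. The lowest, median and highest CPM of Pydc4 were 3.14, 4.84 and 5.52 in Empty-Swim. They were 1.50, 2.69 and 5.35 in Empty-Control and 1.69, 2.24 and 3.06 in miR-21-Control, and the 5 miR-21-Swim libraries had 3.30, 5.24, 3.20, 4.12 and 2.06. The highest Empty-Control libraries were the 2 fat-marker ones, and they reached into the range of Empty-Swim. The other Empty-Control libraries, at 1.50 to 2.70 CPM, lay below all Empty-Swim libraries. In miR-21-Swim, replicates 1, 3 and 4, which are not fat-marker libraries, also lay inside the Empty-Swim range. The log2 difference of Empty-Swim against Empty-Control was 0.42 ± 0.27 (SE, edgeR adjusted p = 0.366, higher in 4 of 6 libraries). Without the 3 fat-marker libraries it was 0.92 (adjusted p = 0.0120) and with limma voom 0.80 (adjusted p = 0.0248), so Pydc4 passed under these settings. Of all tested genes, 11.6% and 12.7% passed in the same fits. The miR-21 vector gave Pydc4 a difference of -0.52 ± 0.28 in control mice (adjusted p = 0.207) and -0.32 ± 0.28 in swimmers (adjusted p = 0.566).

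Between Empty-Swim and Empty-Control, 0 of the 8 relatives of Pydc3 passed an adjusted p of 0.05 by edgeR, where 7.46% of all tested genes did, and 0 had an unadjusted p under 0.05, against 23.3% of all tested genes. DESeq2 called 0 of them and limma voom 1, Pydc4. Their median log2 difference was -0.12 beside -0.0048 for all tested genes, with 2 genes higher and 6 lower. Each of the 6 changed sign in some of 31 alternatives. Ifi204 did so in 5, Mnda in 4, Aim2 in 3, Ifi205 and Mndal in 2 each and Pyhin1 in 1. The 2 higher genes, Pydc4 and Ifi203, did so in 0. Ifi203, the relative with the highest FPKM, had 54.8, 67.2 and 76.4 CPM as lowest, median and highest in Empty-Swim and 52.1, 61.7 and 69.0 in Empty-Control. The groups overlapped over most of their range, and the log2 difference was 0.13 ± 0.09 (SE, edgeR adjusted p = 0.445). Aim2, the inflammasome sensor, had 2.43, 4.05 and 4.96 CPM in Empty-Swim and 2.50, 3.55 and 8.76 in Empty-Control, where the fat-marker replicate 2 was highest. The log2 difference of Aim2 was -0.30 ± 0.29 (adjusted p = 0.573). Pyhin1, the neighbour of Pydc3, had the value farthest below 0, -0.79 ± 0.44 (adjusted p = 0.293), with 8.69 and 8.91 CPM in the fat-marker Empty-Control libraries.

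**Figure D2:**
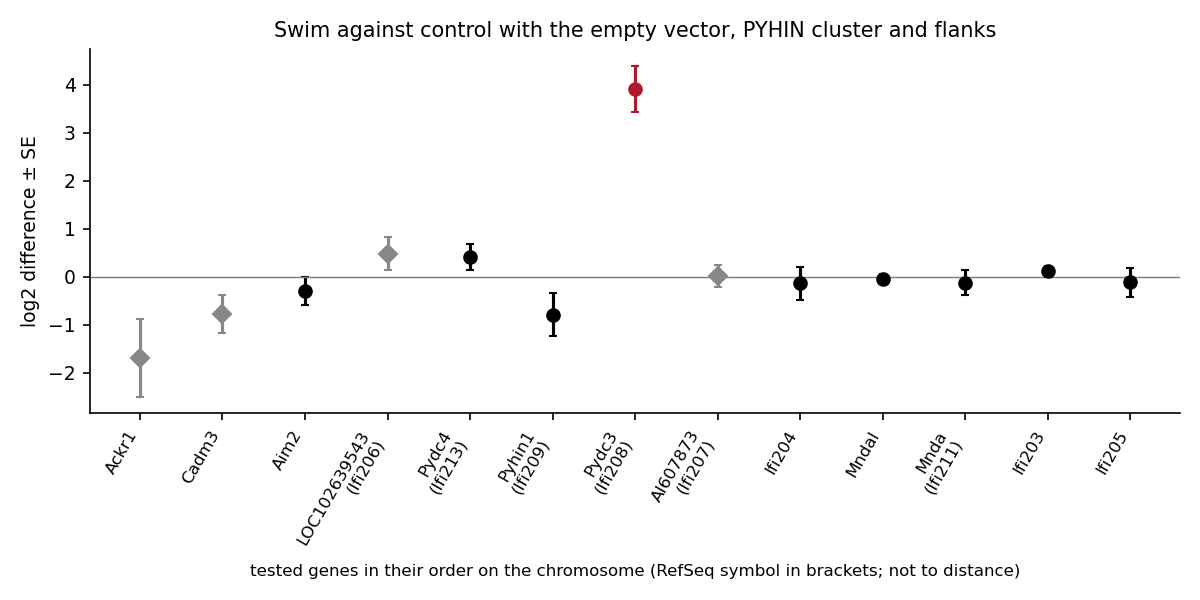
Log2 differences (± SE, edgeR) of Empty-Swim against Empty-Control for the tested genes of the PYHIN cluster and its flanks, in RefSeq order along the x axis. Black circles are the other members and grey diamonds neighbours. Pydc3, in red, stands at 3.91 while the tested neighbours lie between -1.69 and 0.48.

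Genes next to Pydc3 on the chromosome were compared in the same way. Among 30 other genes annotated in the cluster and within 10 genes on each side, 20 had rows and 4 were tested: Ackr1, Cadm3, LOC102639543 (Ifi206) and AI607873. By edgeR 0 of the 4 passed in any of the 5 comparisons, and their log2 differences between Empty-Swim and Empty-Control ran from -1.69 to 0.48. AI607873, next to Pydc3 on the side away from Pyhin1, stood at 0.02 ± 0.23 (adjusted p = 0.976).

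In control mice the fitted levels of 8 of the 8 relatives were lower with the miR-21 vector than with the empty one, but 0 passed by edgeR, where 2.25% of all tested genes did. An unadjusted p under 0.05 was reached by 4 of them and by 28.4% of all tested genes. Without the 3 fat-marker libraries that number was 1, in a fit where 5.76% of all tested genes passed. DESeq2 and limma voom each called 1, Mnda, where they called 9.15% and 10% of all tested genes. The median log2 difference was -0.57, against -0.0048 for all tested genes. The 18 macrophage and monocyte markers were also lower by their median, -0.94, and their part in the family's values was not tested. Mnda, a nuclear protein named for myeloid cells, had 4.79, 7.12 and 12.1 CPM (lowest, median, highest) in Empty-Control and 3.32, 4.23 and 4.55 in miR-21-Control. All miR-21-Control libraries were below all Empty-Control libraries, which held in this direction for 1 of the 8 genes and for 2.41% of all tested genes. The log2 difference of Mnda was -0.94 ± 0.27 by edgeR (SE, adjusted p = 0.0594), with 6 of 6 libraries lower. With DESeq2 the adjusted p was 0.0221, and the authors' deposited table gives a log2 value of -0.93 with an adjusted p of 0.0441.

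Other relatives were also lower in control mice by point estimate, with groups that overlapped. Pyhin1 had 2.36, 3.21 and 8.91 CPM in Empty-Control and 1.43, 1.89 and 3.20 in miR-21-Control. The log2 difference was -1.22 ± 0.45 (SE, edgeR adjusted p = 0.102). Ifi204, linked to STING, had 8.72, 11.1 and 22.5 CPM against 5.74, 7.56 and 12.9, with a difference of -0.78 ± 0.35 (adjusted p = 0.160). Ifi205 had 8.42, 10.6 and 25.3 CPM against 6.19, 8.55 and 11.6, with a difference of -0.62 ± 0.30 (adjusted p = 0.173). In each of these 3 genes the 2 highest Empty-Control libraries were the fat-marker ones. The 2 genes with the highest FPKM differed least, Ifi203 by -0.06 ± 0.09 (adjusted p = 0.684) and Mndal by -0.15 ± 0.10 (adjusted p = 0.319). Aim2 had a fitted difference of -0.38 ± 0.29 (edgeR adjusted p = 0.382). Its median was 3.55 CPM in Empty-Control and 3.66 in miR-21-Control. The difference of Aim2 changed sign in 2 of 31 alternatives, and those of the other relatives in 0. Without miR-21-Swim replicate 2, which is in neither group but enters the shared estimate of spread, Mnda (-0.93, adjusted p = 0.00489), Pyhin1 (-1.21, 0.0179) and Ifi204 (-0.77, 0.0276) passed. In that fit 21.3% of all tested genes passed, so calls became more frequent in general.

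In swimmers the relatives of Pydc3 lay on both sides of the empty vector with the miR-21 vector, 5 higher and 3 lower. Over 31 alternatives Ifi204, Mndal and Pyhin1 changed sign in 4 each, Mnda in 2 and the others in 0. By edgeR 0 of 8 passed, beside 4.58% of all tested genes, and 0 had an unadjusted p under 0.05, against 19.8% of all tested genes. DESeq2 called 0, and limma voom 1, Mnda, where it called 20.1% of all tested genes. The median log2 difference was 0.12, against 0.02 for all tested genes. Mnda had 3.53, 12.9, 5.70, 6.11 and 3.46 CPM in miR-21-Swim, against 5.58, 7.29 and 8.59 as lowest, median and highest in Empty-Swim. The fat-marker replicate 2 was above Empty-Swim, and the other 4 were in its lower part or below. The log2 difference of Mnda was -0.15 ± 0.28 (SE, edgeR adjusted p = 0.815), and without the 3 fat-marker libraries it was -0.58 (adjusted p = 0.0395), in a fit where 17.3% of all tested genes passed. Aim2 stood at 0.52 ± 0.30 (adjusted p = 0.349) and Pyhin1 at 0.59 ± 0.46 (adjusted p = 0.507).

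Under the miR-21 vector, the fitted levels of 8 of 8 relatives were higher in swimmers than in control mice, with a median log2 difference of 0.65 beside 0.03 for all tested genes. By edgeR 0 of 8 passed, where 0.17% of all tested genes did. An unadjusted p under 0.05 was reached by 5 of them and by 18.8% of all tested genes. Without miR-21-Swim replicate 2 that number was 0, and without the 3 fat-marker libraries it was 1. DESeq2 and limma voom called 0. The macrophage and monocyte markers had a median of 0.52 in this comparison. Ifi205 had 9.31, 20.2, 22.2, 11.3 and 11.0 CPM in miR-21-Swim and 6.19, 8.55 and 11.6 (lowest, median, highest) in miR-21-Control. Replicates 2 and 3 were above the control group and the other 3 overlapped it. The log2 difference was 0.79 ± 0.31 (SE, edgeR adjusted p = 0.187, higher in 5 of 5 libraries). Pyhin1 had 1.65, 11.4, 3.28, 3.09 and 1.48 CPM in miR-21-Swim, with a difference of 1.02 ± 0.47 (adjusted p = 0.249). Ifi204 had 7.73, 35.8, 9.21, 11.8 and 6.43 CPM, with a difference of 0.80 ± 0.37 (adjusted p = 0.249). In both genes replicate 2 alone was far above the rest.

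The effect of swimming was also compared between the vectors. By edgeR 0 of the 8 relatives passed for this interaction, beside 0.541% of all tested genes, and DESeq2 and limma voom called 0. An unadjusted p under 0.05 was reached by 3 of them and by 21.5% of all tested genes, and by 0 without miR-21-Swim replicate 2 or without the 3 fat-marker libraries. The largest value among the relatives was that of Pyhin1, 1.81 ± 0.65 on the log2 scale (SE, edgeR adjusted p = 0.128). Ifi205 had 0.91 ± 0.43 and Aim2 0.90 ± 0.42 (adjusted p = 0.219 and 0.218), and Pydc4 had 0.20 ± 0.39 (adjusted p = 0.796). Each group enters 2 of the 4 comparisons of groups, so their values are not independent of each other.

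**Figure D3:**
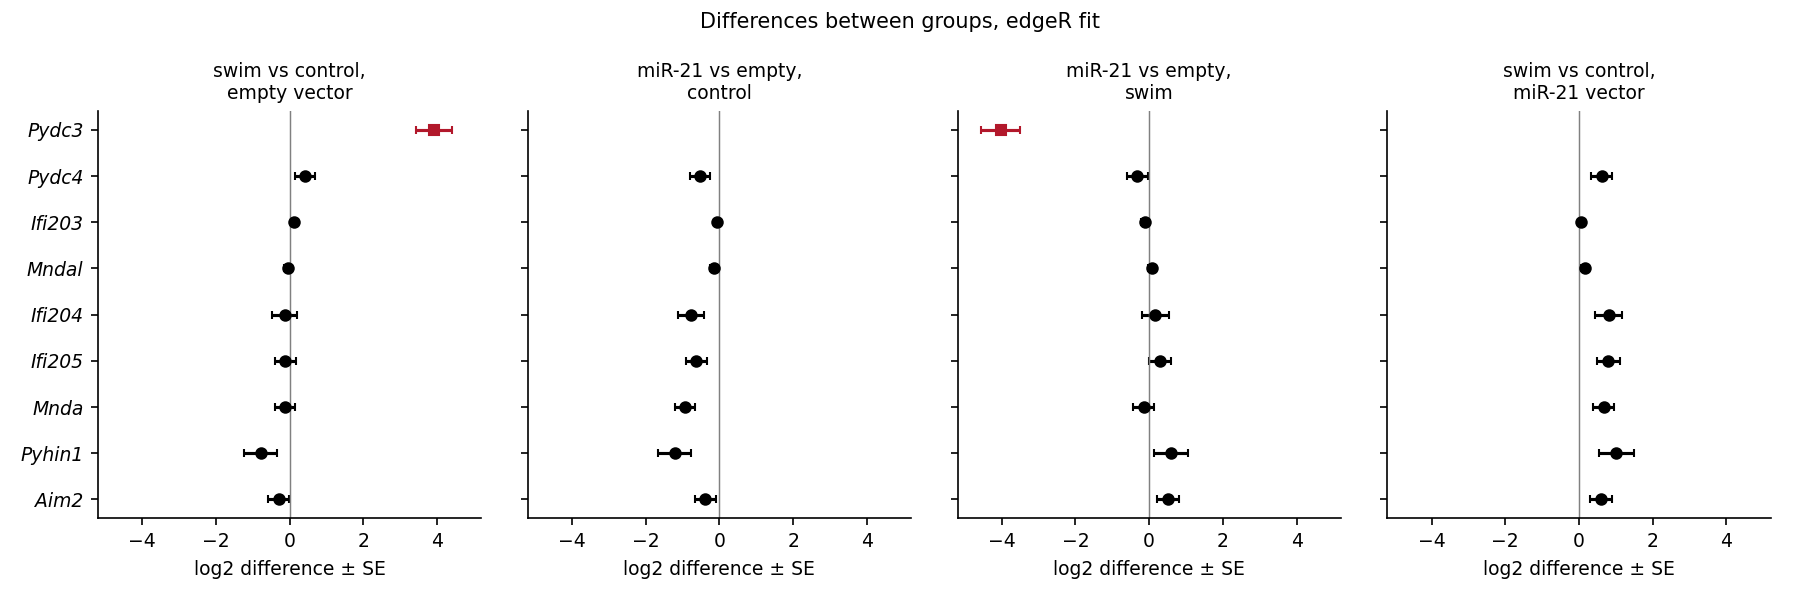
Log2 differences (± SE, edgeR, x axis) of the 9 PYHIN genes in the 4 comparisons of groups. Red squares are Pydc3, shown in the 2 comparisons where a fold is given (3.91 and -4.03), and the black circles of the other 8 genes lie between -1.22 and 1.02.

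A second pattern cut across the groups. In the 3 fat-marker libraries Ifi204 stood at 21.1 to 35.8 CPM, against 5.74 to 15.5 in the other 20. Pyhin1 had 8.69 to 11.4 CPM against 1.43 to 4.47, Mnda 9.73 to 12.9 against 3.32 to 8.96, and Aim2 6.09 to 9.65 against 2.43 to 5.96. For these 4 genes the 3 libraries lay above all others. The ranges overlapped for Ifi205 (14.3 to 25.3 against 6.19 to 22.2), Pydc4 (5.24 to 5.35 against 1.50 to 5.52), Mndal (45.7 to 58.9 against 33.0 to 48.9) and Ifi203 (62.3 to 73.5 against 48.7 to 76.4). Pydc3 was at 0.602 CPM or less in all 3.

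Markers of white blood cells were high in the same 3 libraries. The 18 macrophage and monocyte markers summed to 1869 to 2920 CPM there and to 450 to 1260 CPM in the other 20. The 12 lymphocyte markers present, of 13 listed, summed to 27.0 to 81.2 CPM against 5.08 to 24.4, and the 8 neutrophil markers to 220 to 1046 against 3.63 to 67.3. The 9 heart muscle markers were lower, at 58850 to 74942 CPM against 85136 to 112899. Of the markers present, 0 were at 0 in every library. The part of cell content in the levels of Ifi204, Pyhin1, Mnda and Aim2 was not tested.

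**Figure D4:**
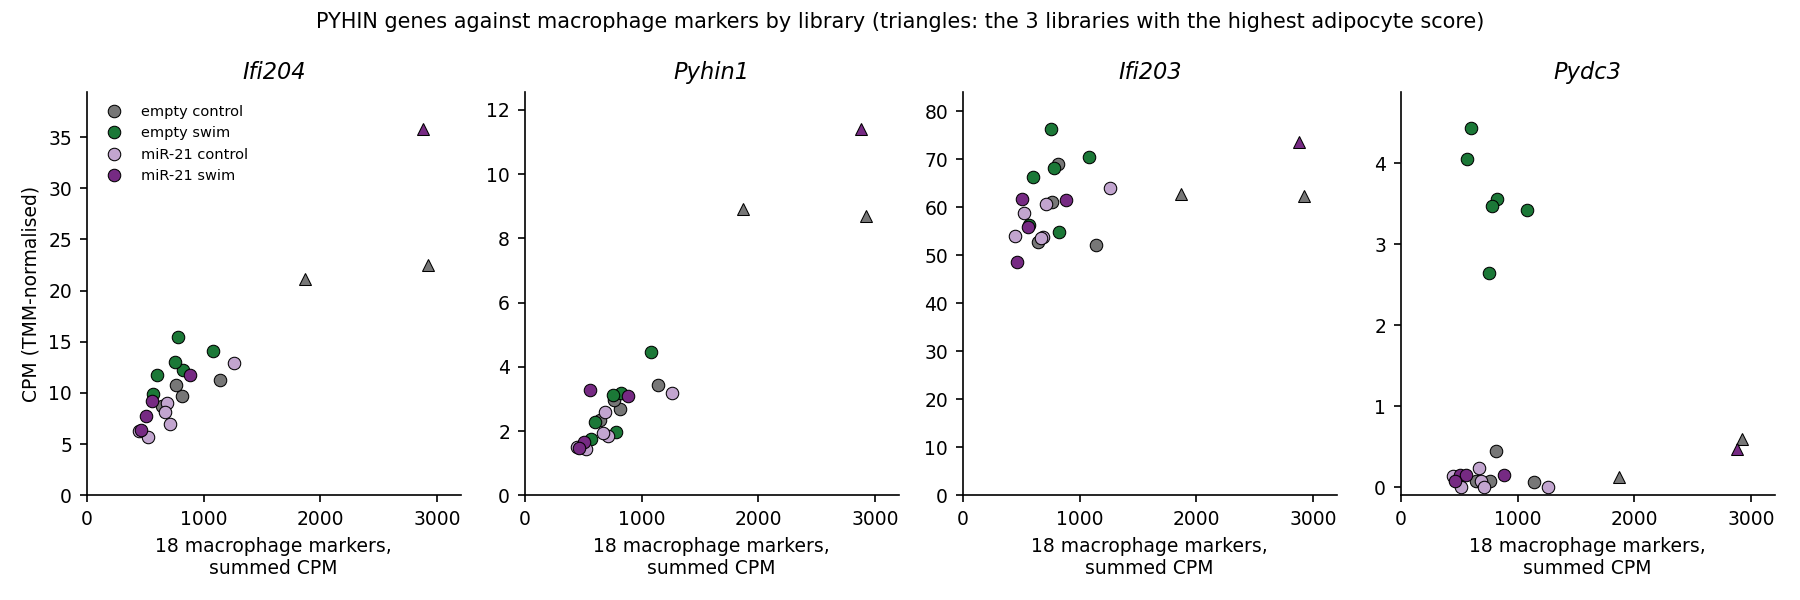
CPM of Ifi204, Pyhin1, Ifi203 and Pydc3 in each library (y axes) against the summed CPM of 18 macrophage and monocyte markers (x axes). Colours are the groups and triangles the fat-marker libraries, which lie at 1869 CPM or more on the x axis and are highest for Ifi204 and Pyhin1. Pydc3 is high in the 6 Empty-Swim libraries, at 567 to 1084 CPM on the x axis.

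**Figure D5:**
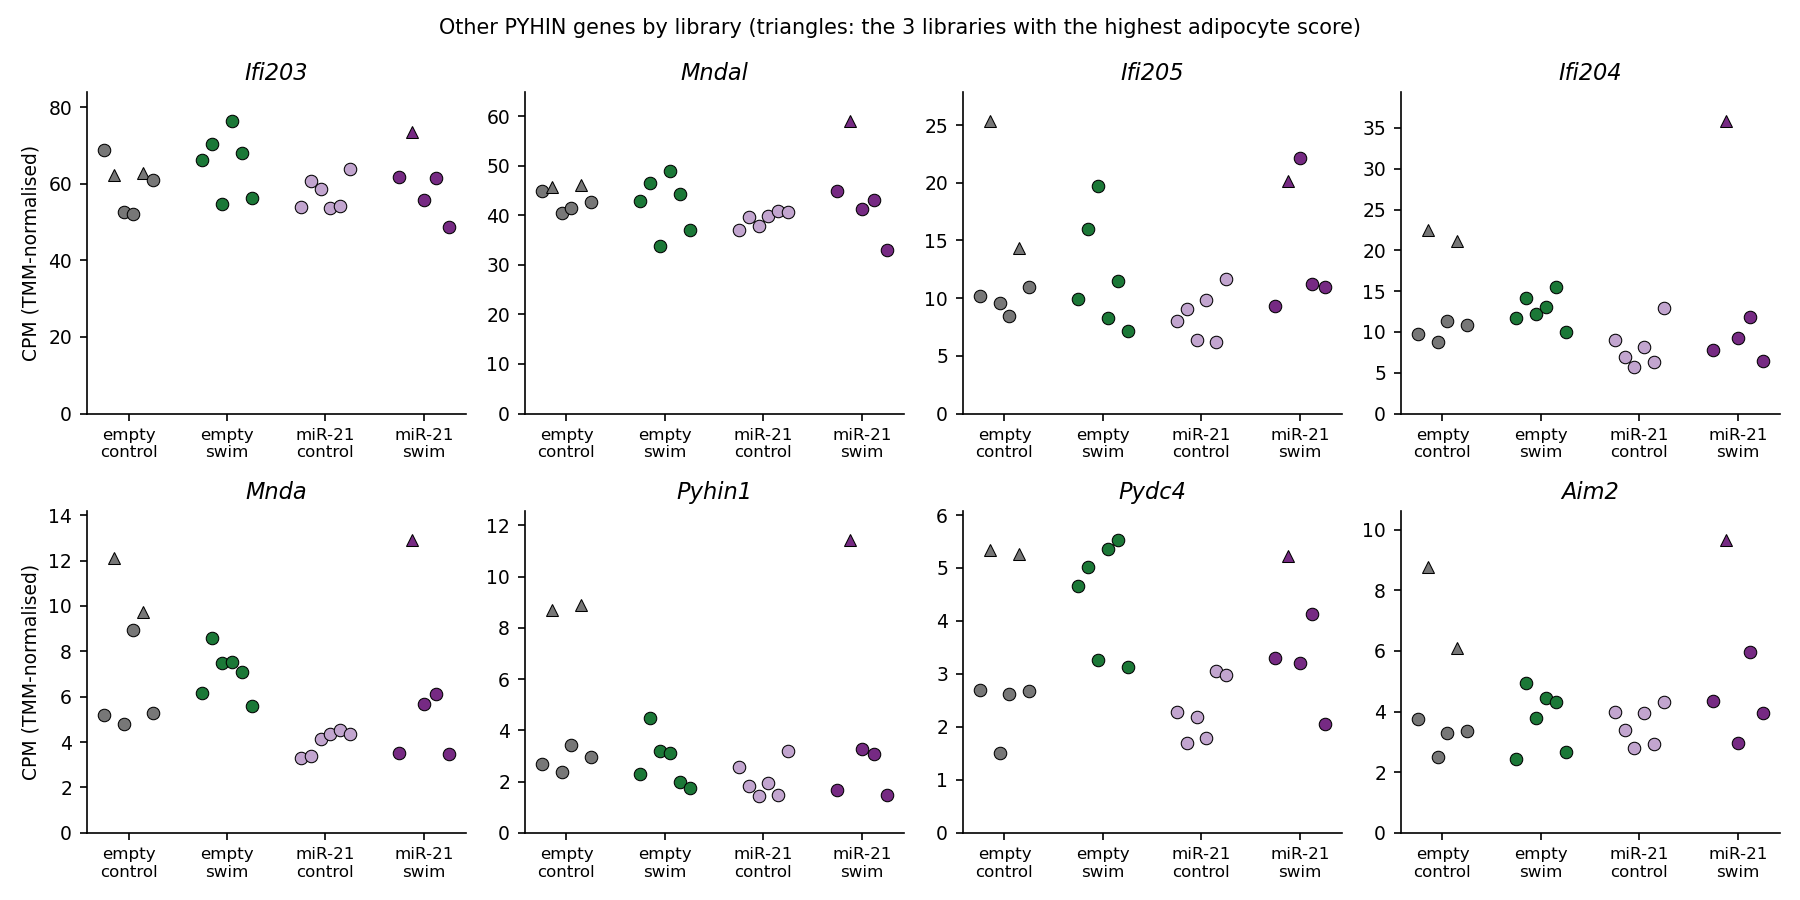
CPM of the 8 relatives of Pydc3 by library in the 4 groups, each panel on its own scale from 0. Triangles are the fat-marker libraries, and for Ifi204, Mnda, Pyhin1 and Aim2 all 3 lie above the other 20.

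Genes that interferon induces were set beside the family, since many PYHIN genes are among them. Of 35 listed, 33 were tested, and between Empty-Control and Empty-Swim 4 rose and 0 fell, where 7.46% of all tested genes passed in either direction. Xaf1, an apoptosis factor induced by interferon, rose from 18.6 ± 0.57 to 25.3 ± 3.05 CPM (SD, n = 6 each), a log2 difference of 0.44 ± 0.08 (SE, edgeR adjusted p = 0.00181). Cmpk2, a mitochondrial nucleotide kinase, rose from 13.6 ± 2.68 to 19.5 ± 2.57 CPM, by 0.53 ± 0.12 (adjusted p = 0.00802). With the title number series, which coincides with swimming under the empty vector, as a covariate the difference of Cmpk2 was 0.45 and its call was lost (adjusted p = 0.394). Ifit2, which binds viral RNA, rose by 0.35 ± 0.10 (adjusted p = 0.0451) and kept its call in 14 of 31 alternatives. The median difference over the 33 genes was 0.15, against -0.0048 for all tested genes. The number that rose was 13 without the fat-marker libraries, 12 by limma voom and 5 by DESeq2, in fits where 11.6%, 12.7% and 10.5% of all tested genes passed. It was 2 when any 1 of 14 of the 23 libraries was left out, in fits where 4.5% to 7.21% of all tested genes passed.

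In swimmers 3 of the 33 interferon-induced genes fell with the miR-21 vector and 0 rose, beside 4.58% of all tested genes in either direction. They were Cmpk2, by -0.60 ± 0.12 on the log2 scale (edgeR adjusted p = 0.00704), Xaf1, by -0.35 ± 0.08 (adjusted p = 0.0163, and 0.108 with only the groups compared), and Ifi44, by -0.50 ± 0.14 (adjusted p = 0.0380, called in 18 of 31 alternatives). The median over the 33 genes was -0.20, against 0.02 for all tested genes. The number that fell was 13 without the fat-marker libraries, 8 without miR-21-Swim replicate 2, 14 by limma voom and 1 with only the groups compared. Of all tested genes, 17.3%, 13.8%, 20.1% and 1.26% passed in these fits. Both comparisons share the Empty-Swim libraries, and they are the ones in which Pydc3 differed by 3.91 and -4.03. In the other 3 comparisons 0 of 33 passed by edgeR, where 0.17% to 2.25% of all tested genes did. An unadjusted p under 0.05 was reached by 13 of them between the control groups, 12 between the groups of the miR-21 vector and 4 for the interaction. The shares of all tested genes were 28.4%, 18.8% and 21.5%. DESeq2 called 2, 0 and 2 there, beside 9.15%, 2.99% and 5.33% of all tested genes. Limma voom called 1, 0 and 0, beside 10%, 2.33% and 1.09%. In the same order of comparisons the median differences over the 33 genes were -0.32, 0.29 and 0.12. Between the control groups the smallest adjusted p was 0.0698, for Ifi27l2a at -0.80 ± 0.25.

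Genes of DNA sensing and the inflammasome, the pathways in which Aim2 and Ifi204 act, were listed together with interferon receptor genes. Genes of this list were called in small numbers. Between the control groups 1 of 24 passed by edgeR and 11 had an unadjusted p under 0.05, while DESeq2 and limma voom called 4 each. Of all tested genes 2.25% passed by edgeR there and 28.4% had an unadjusted p under 0.05, with 9.15% and 10% called. Between Empty-Swim and Empty-Control 1 passed by each of the 3 tools and 6 had an unadjusted p under 0.05. There 7.46% of all tested genes passed by edgeR, 10.5% by DESeq2 and 12.7% by limma voom, and 23.3% had an unadjusted p under 0.05. The gene that passed by edgeR was the same in both comparisons. It was an interferon receptor gene, not a gene of DNA sensing or the inflammasome. Ifngr2, a chain of the interferon gamma receptor, rose between Empty-Control and Empty-Swim from 152 ± 15.1 to 187 ± 9.01 CPM (SD, n = 6 each), by 0.30 ± 0.08 (SE, edgeR adjusted p = 0.0252). Ifngr2 also rose in miR-21-Control, to 189 ± 12.4 CPM, by 0.31 ± 0.08 (adjusted p = 0.0440), and both comparisons share the Empty-Control libraries. The call was kept in 27 of 31 alternatives in the first comparison and in 16 in the second. With the title number series as a covariate the first was 0.13 (adjusted p = 0.733), and it also failed without Empty-Control replicate 2 or 5 or Empty-Swim replicate 6. The gene of the pore protein gasdermin D, Gsdmd, had -0.44 ± 0.17 (adjusted p = 0.115) and -0.51 ± 0.17 (adjusted p = 0.0784) in these comparisons. In the other 3 comparisons 0 of the 24 passed by edgeR, where 0.17% to 4.58% of all tested genes did. Between the groups of swimmers 0 had an unadjusted p under 0.05, while limma voom called 4 and DESeq2 0. Of all tested genes 19.8% had such a p, and limma voom called 20.1% and DESeq2 7.19%. Between the groups of the miR-21 vector 1 of the 24 had an unadjusted p under 0.05, with 0 called by either tool. For the interaction 6 did, with 1 called by DESeq2 and 0 by limma voom. Unadjusted, 18.8% and 21.5% of all tested genes reached 0.05 in these comparisons. DESeq2 called 2.99% and 5.33% of all tested genes, and limma voom 2.33% and 1.09%. The medians over the 24 genes were -0.19 for Empty-Swim against Empty-Control, -0.54 between the control groups and 0.12 between the groups of swimmers. Of the 18 macrophage and monocyte markers, 0 passed by edgeR in any of the 5 comparisons. Between the control groups 10 had an unadjusted p under 0.05, with 0 called by DESeq2 or limma voom. In the other comparisons 1 to 9 did, with 0 or 1 called by each tool. Of all tested genes 28.4% had an unadjusted p under 0.05 between the control groups and 18.8% to 23.3% in the others.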

How the data were processed

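Per the labels' protocols, total RNA from heart was isolated with TRIzol, and the TruSeq kit used makes stranded mRNA libraries. GRCm39 is the build in the submitters' processing notes, while the aligner and counting program are not stated. The deposited table holds a raw count per gene and library, and the authors also deposited FPKM values, used here only to compare levels between genes. The authors' comparison tables give a log2 value, a p-value and an adjusted p-value per gene. From the tables, 46 other per-sample columns were not used. Counts of 23 libraries were used, and miR-21-Swim replicate 6 was not analysed here. Identical counts were found in 0 of the 253 pairs of libraries.

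Genes were kept by filterByExpr (minimum count 10), which left 13501, and scaled by trimmed mean of M-values. An edgeR quasi-likelihood model with robust dispersion was fitted to all libraries. Its p-values were adjusted by Benjamini-Hochberg over all tested genes, with calls at 0.05. The model was also run on simulated counts with the same spread for every gene and no outlying library. That run does not cover libraries such as miR-21-Swim replicate 2 or counts as low as those of Pydc3. Log2 CPM for correlations used a prior count of 2. A library counts as higher or lower by its place against the mean CPM of the group it is compared with. The members, lists and rules were chosen with earlier results of these data known. Named genes are the 9 members, the 5 genes most like Pydc3 by each measure, and up to 3 called genes of each list (2 where none was called), in order of p. Mest, Sapcd2, Kcnc4 and Gsdmd were named after their values were seen. Promoter sequences are from RefSeq (GRCm38.p6), and no coordinate was converted. Alternatives were DESeq2, limma voom with quality weights, other scalings and filters, a fit of the compared groups alone, the title number series as a covariate, and leaving out libraries. For genes outside the family these were chosen after seeing the data. The software was edgeR 4.0.16, limma 3.58.1 and DESeq2 1.42.0 in R 4.3.3, with numpy 2.4.6 and matplotlib 3.10.9 in Python 3.11.15.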

Additional observations from a re-analysis of the deposited data

Results flagged for a closer look

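Dixon's test, which asks whether 1 library lies too far from the rest of its group, flagged 5 of 36 sets of CPM values. The sets were 9 genes in 4 groups. Chance picks about 1 in 20 independent sets. These sets share the same libraries across genes, so 5 of 36 cannot be measured against that share. Replicate 2 of miR-21-Swim was the highest for Ifi204 (35.8 CPM, next 11.8), Mnda (12.9, next 6.11), Pyhin1 (11.4, next 3.28) and Pydc3 (0.471, next 0.156). For Pydc3 this is 8 reads against 1 to 2 in the other 4, and is given as a description of counts close to 0. Replicate 2 of Empty-Control was the highest for Ifi205 (25.3 CPM, next 14.3). Both libraries are fat-marker and had 2880 and 2920 CPM of the 18 macrophage and monocyte markers, and the part of this in the values was not tested.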

How the results depend on the processing

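Of 1820 recomputed values, 0 turned direction in a called result. Only single genes called in the main fit or the alternative could count as turned. Because 0 relatives of Pydc3 were called in the main fit, this says little about the family. Uncalled values of relatives did change sign, in up to 5 of 31 alternatives (Ifi204, Empty-Swim against Empty-Control). Calls were lost in 51 of the 1820, all of them for genes of the interferon list and the DNA sensing list. No family member could lose a call, since 0 were called in the main fit. The number of relatives of Pydc3 called, 0 in each comparison, became 1 for Empty-Swim against Empty-Control by limma voom and without the 3 fat-marker libraries (Pydc4 in both). Of all tested genes 12.7% and 11.6% passed in these fits. For miR-21-Control against Empty-Control the number became 1 by DESeq2, by limma voom and with the title number series as a covariate, and 2 with only the groups compared. In these fits 9.15%, 10%, 6.75% and 12.5% of all tested genes passed. The number was 0 to 3 when each library was left out. It was 3 without miR-21-Swim replicate 2, and 1 without miR-21-Swim replicate 5 or Empty-Control replicate 1, 3 or 6. Of all tested genes 21.3% passed without miR-21-Swim replicate 2, and 3.16% to 5.26% in the other fits named. Mnda passed in 9 of 31 alternatives there, with log2 differences from -1.05 to -0.60 and edgeR, DESeq2 or limma adjusted p from 0.00489 to 0.161. For miR-21-Swim against Empty-Swim the number became 1 by limma voom and without the fat-marker libraries (Mnda in both), where 20.1% and 17.3% of all tested genes passed. For miR-21-Swim against miR-21-Control the number became 2 with the title number series (Ifi204 1.42, adjusted p 0.0414, and Mndal 0.40, 0.0411). In that fit 7.97% of all tested genes passed, against 0.17% in the main fit. For the interaction the number was 0 in each alternative run, and the one with only the groups compared was not run, since all groups enter it.

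The log2 difference of Pydc3 between Empty-Swim and Empty-Control was 5.16 with the title number series, which only miR-21-Swim can separate from swimming, and 3.71 to 4.45 when each library was left out. Between miR-21-Swim and Empty-Swim it was -4.70 with that covariate and -4.64 without the fat-marker libraries. It was -4.64 (without miR-21-Swim replicate 2) to -3.86 when each library was left out. Of 31 alternatives chosen after seeing the data, Xaf1 kept its call in 31 and Cmpk2 in 30 (not with the title number series) for Empty-Swim against Empty-Control, Ifit2 in 14 and Ifngr2 in 27. For miR-21-Swim against Empty-Swim Cmpk2 kept it in 31, Xaf1 in 30 and Ifi44 in 18, and Ifngr2 between the control groups in 16. The number of interferon genes that fell in miR-21-Swim against Empty-Swim, 3, was 7 with the title number series and 2 to 8 when each library was left out. With that covariate 5.24% of all tested genes passed. No paired analysis was possible because the labels carry no replicate numbers shared between groups. Outside Empty-Swim the libraries held 0 to 9 reads of Pydc3, and differences among those groups were not tested.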
